A study of Mus musculus with 4 samples.

Results

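The transcription factors that drive fat cell formation were followed in C3H10T1/2 cells, a mouse mesenchymal stem cell line, with and without 5-azacytidine (5-AZA). The set holds 9 genes, Pparg, Cebpa, Cebpb, Cebpd, Klf15, Srebf1, Ebf1, Ebf2 and Zfp423, out of 21878 genes in the mRNA table, and was chosen by gene name. The choice was made with earlier results of these data known, so comparisons with the shares of all genes are descriptions. Every transcript listed under one of these symbols was taken, 52 of 75959 transcripts in all. Values are FPKM, fragments scaled to transcript length and to sequencing depth, and the transcripts of a gene were summed.

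Adipogenesis is commonly described as a cascade. Zfp423, Ebf1 and Ebf2 mark or commit mesenchymal cells as fat cell precursors, and Cebpb and Cebpd respond early to adipogenic stimuli and switch on Pparg and Cebpa, which then maintain each other and turn on the genes of the mature fat cell. Srebf1 drives the synthesis of fatty acids, and Klf15 acts late in the cascade and on genes of glucose and lipid metabolism.

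Stranded libraries of total RNA were made after removal of ribosomal RNA. The untreated group has replicates 1 and 2, and the 5-AZA group has replicates 101 and 102. 5-AZA is a cytidine analogue that inhibits DNA methylation. The treated cells received 20 µmol/L for 72 hours and were then kept for 21 days in fresh growth medium, while the labels list no time in culture for the untreated cells, so that treatment and time in culture cannot be told apart. The paper speaks of biological repeats, but the labels name no separate cultures, so p-values measure only the spread between these samples, which may be technical. FPKM summed to 343955 and 334568 in the untreated replicates and to 328410 and 361664 in the 5-AZA replicates, and read counts per sample were not analysed here.

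All 9 genes were detected, and in each of them both 5-AZA samples lay above both untreated samples. That pattern held for 36.8% of the 13199 genes tested (those with a mean of at least 0.1 FPKM), so it is frequent in these data. Cebpa, Klf15 and Srebf1 were called higher after 5-AZA, where called means an adjusted p-value below 0.05 in limma and a change of more than 2-fold on the log2(FPKM + 0.1) scale. The 3 of 9 compare with 13.1% of all genes tested, and 0 of 9 were called lower, against 1.32% of all genes. At an adjusted p-value below 0.05 without the 2-fold limit there were 7 of 9, against 18.6%. That count was 3 without 5-AZA replicate 101, 1 without replicate 102 and 3 without the limit on low values, against 7.60%, 5.92% and 8.70% of all genes in the same fits. Over curated transcripts alone the count was 4 of 8, against 12.5% of all genes in that fit. The median log2 change was 0.77 over the 9 genes and 0.05 over all genes tested. Changes on this scale understate those of low genes. With 2 samples against 2, the smallest two-sided p that an exact permutation test allows is 0.333, so no single gene can pass such a test. In bulk RNA, more cells of the fat lineage and more RNA per cell cannot be told apart.

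**Figure D1:**
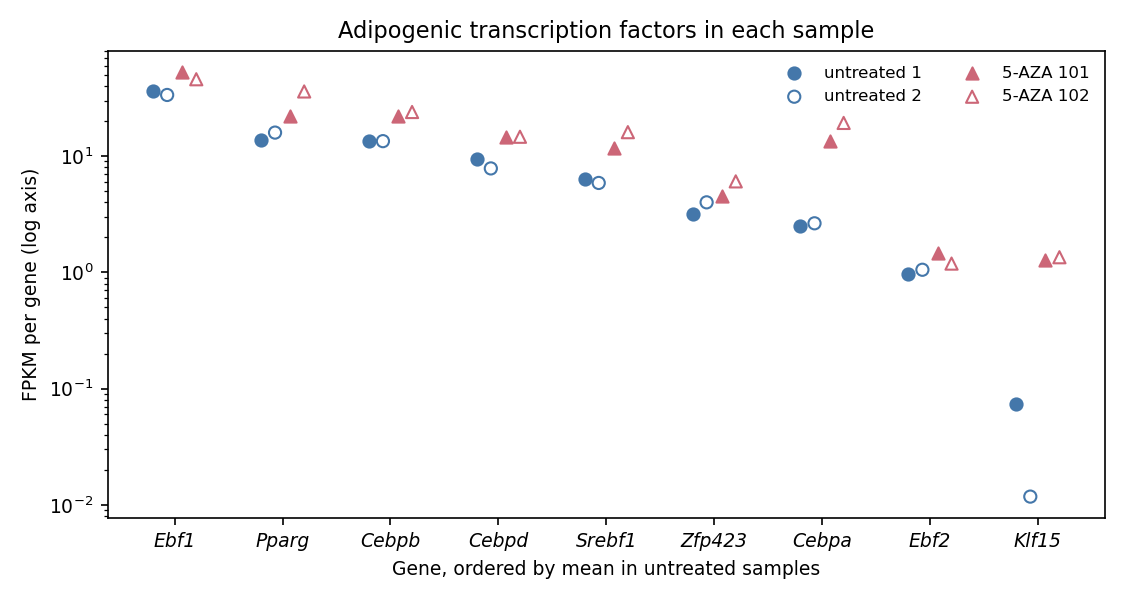
FPKM of each gene (log axis) in untreated replicates 1 and 2 (circles) and 5-AZA replicates 101 and 102 (triangles), with 1 point per sample and genes ordered by their untreated mean. The triangles lie above the circles for every gene, with the widest gaps at Klf15 and Cebpa.

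The early factors Cebpb and Cebpd were already well expressed in untreated cells. Cebpb, a bZIP factor among the first to respond to adipogenic stimuli, was at 13.6 and 13.5 FPKM in untreated replicates 1 and 2 and at 22.3 and 23.96 FPKM in 5-AZA replicates 101 and 102. Cebpd, its usual partner in the early phase, was at 9.47 and 7.84 FPKM in the untreated and at 14.6 and 14.7 FPKM in the 5-AZA replicates. In both genes the 5-AZA samples were close to each other and clear of the untreated samples. The log2 changes were 0.77 for Cebpb (standard error 0.11, adjusted p = 0.00108, limma) and 0.76 for Cebpd (standard error 0.14, adjusted p = 0.00381, limma). Both passed the adjusted p-value and stayed under the 2-fold limit, so neither was called. Over all alternatives the adjusted p ran from 4.79e-04 to 0.0536 for Cebpb, with the highest without 5-AZA replicate 102. For Cebpd it ran from 0.00127 to 0.139, with 0.135 and 0.139 without 5-AZA replicate 101 or 102 and 0.0625 without the limit on low values. The 3 Cebpb transcripts had identical values in every sample, as did 4 of the 5 Cebpa transcripts, so these records could not be told apart by the quantification and only their sums are informative.

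The precursor factors differed widely in level. Ebf1, a factor of early B cells that also acts in fat cell precursors, had the highest FPKM of the 9 genes in both groups, with 36.3 and 33.6 FPKM in the untreated and 52.9 and 45.8 FPKM in the 5-AZA replicates. Its relative Ebf2, which selects brown fat precursors, was at 0.963 and 1.05 FPKM in the untreated and at 1.47 and 1.19 FPKM in the 5-AZA replicates. Zfp423, a zinc finger protein of committed preadipocytes, was at 3.20 and 4.003 FPKM in the untreated and at 4.51 and 6.06 FPKM in the 5-AZA replicates. For Ebf2 and Zfp423 the gap between the groups was similar to the spread within one of them, whereas for Ebf1 it was wider. Ebf1 had a log2 change of 0.49 (standard error 0.11, adjusted p = 0.0116, limma), below the 2-fold limit. Its adjusted p ran from 0.00871 to 0.123 over all alternatives and was above 0.05 after either scaling, without trend, without the limit on low values, over curated transcripts alone and in every fit that left out a sample other than untreated replicate 1. Zfp423, with 0.54 (adjusted p = 0.0945, limma), and Ebf2, with 0.36 (adjusted p = 0.339, limma), did not pass. The 95% interval ran from 0.07 to 1.00 for Zfp423 and from -0.20 to 0.93 for Ebf2, so a change close to 2-fold lies within or at the edge of both. Ebf2 turned to -0.36 after quantile normalization.

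Of the 11 Ebf1 transcripts, 7 had a mean of at least 1 FPKM. NM_007897.3 held the largest part, with 15.6 and 15.5 FPKM in the untreated and 23.5 and 19.2 FPKM in the 5-AZA replicates, followed by NM_001290709.1, with 6.15, 6.37, 9.10 and 7.84 FPKM in the same order. The other 5, XM_006532155.3, XM_006532156.3, XM_006532157.3, NM_001290711.1 and NM_001290710.1, had means over the 4 samples from 1.115 to 4.87 FPKM. None of the 10 Ebf1 transcripts tested was called by limma, against 2.10% called higher and 0.262% called lower among all mRNA transcripts tested. The smallest unadjusted p among the 10 was 0.0109 (limma). For Zfp423, NM_033327.2 was the only transcript with a mean of at least 1 FPKM, and its values overlapped between the groups, with 2.11 and 3.14 FPKM in the untreated and 2.50 and 3.61 FPKM in the 5-AZA replicates. NM_001310520.1, just under that mean, did not overlap, with 0.339 and 0.312 FPKM in the untreated and 1.80 and 1.34 FPKM in the 5-AZA replicates. It had a log2 change of 1.96 (adjusted p = 0.126, limma), and the share of all mRNA transcripts without overlap is not given here.

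Pparg, the nuclear receptor that is required for fat cell formation, was at 13.8 and 15.9 FPKM in the untreated and at 22.2 and 36.0 FPKM in the 5-AZA replicates. The groups did not overlap, but the 5-AZA replicates lay far apart, and replicate 102 was the highest sample. The log2 change was 0.92 (standard error 0.21, 95% interval 0.45 to 1.39, adjusted p = 0.0114, limma), so Pparg passed the adjusted p-value and fell just short of 2-fold. Without untreated replicate 2 it was called, with a change of 1.02 (adjusted p = 7.84e-04, limma), and without 5-AZA replicate 102 the change was 0.57 (adjusted p = 0.138, limma). The adjusted p was also above 0.05 without 5-AZA replicate 101 (change 1.27, adjusted p = 0.0587), without the limit on low values (0.185) and without trend (0.0859). Over all alternatives it ran from 7.84e-04 to 0.185. In FPKM, Pparg ranked behind Ebf1 in every sample. Its group means lay above those of Cebpb, but the pair were nearly level in untreated replicate 1, and Cebpb was slightly above Pparg in 5-AZA replicate 101.

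Pparg has several start sites. The upstream ones give rise to messages for the shorter isoform 1, which many cells make, and a start farther downstream gives rise to the message for isoform 2, which is largely restricted to fat. The RefSeq promoter table of build GRCm38.p6 lists 3 Pparg starts on the forward strand of chromosome 6, with windows of 300 bases, and does not tie them to transcript records, so no window was matched to an isoform. The most upstream and the most downstream window are shown because they differ in CG dinucleotides, the sites of DNA methylation in mammals. CG is in capitals, and methylation itself was not measured in these files. The upstream window lies at chr6:115360894-115361193 and the downstream window at chr6:115421816-115422115.
Pparg start 1: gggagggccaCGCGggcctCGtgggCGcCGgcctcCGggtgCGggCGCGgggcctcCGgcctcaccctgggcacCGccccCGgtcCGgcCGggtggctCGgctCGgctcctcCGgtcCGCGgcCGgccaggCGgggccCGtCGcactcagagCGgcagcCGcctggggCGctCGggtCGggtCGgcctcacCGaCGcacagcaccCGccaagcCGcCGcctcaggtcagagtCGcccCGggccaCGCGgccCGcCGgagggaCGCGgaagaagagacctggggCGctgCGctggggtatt
Pparg start 3: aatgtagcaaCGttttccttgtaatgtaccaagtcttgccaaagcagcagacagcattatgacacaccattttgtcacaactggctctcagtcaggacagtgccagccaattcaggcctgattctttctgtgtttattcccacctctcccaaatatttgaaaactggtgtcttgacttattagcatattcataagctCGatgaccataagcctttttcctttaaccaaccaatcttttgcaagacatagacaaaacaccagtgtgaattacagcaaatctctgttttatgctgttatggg
The upstream window holds 44 CG and the downstream window 2, against a median of 7 over the 32851 promoter windows of the table. Fewer CG were found in 97.75% of all windows for the upstream and in 14.1% for the downstream start, and the middle start at chr6:115362099-115362398 had 13. The downstream window also holds the letters TTGCNNAA, a form of the C/EBP motif, at 2 places on either strand (TTGCCAAA and TTTTGCAA). This motif, searched on both strands, is present in 10.8% of all windows, and a match describes the letters only.

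By transcript, 3 Pparg records had a mean of at least 1 FPKM. NM_011146.3, transcript variant 2 and the RefSeq record of isoform 2, was at 0.0148 and 0.406 FPKM in the untreated and at 3.95 and 5.32 FPKM in the 5-AZA replicates. NM_001308354.1, variant 4, was the most abundant in every sample, with 8.70 and 10.6 FPKM in the untreated and 15.1 and 25.5 FPKM in the 5-AZA replicates. NM_001127330.2, variant 1, was at 3.26 and 3.66 FPKM in the untreated and at 1.60 and 3.49 FPKM in the 5-AZA replicates. Variants 2 and 4 were higher in both 5-AZA samples than in either untreated sample, whereas 5-AZA replicate 101 alone was low in variant 1. The share of all mRNA transcripts with both 5-AZA samples above both untreated samples is not given here. Variant 2 made up 0.107% and 2.55% of Pparg FPKM in the untreated and 17.8% and 14.8% in the 5-AZA replicates. Variant 4 made up 62.8% and 66.3% in the untreated and 68.2% and 70.9% in the 5-AZA replicates, and variant 1 made up 23.5% and 23.0% against 7.21% and 9.71%.

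None of the 7 Pparg transcripts tested was called higher or lower, against 2.10% and 0.262% of the 35557 mRNA transcripts tested. Variant 2 had a log2 change of 4.28 with a wide 95% interval of 2.35 to 6.21 (standard error 0.77, adjusted p = 0.0610, limma). With a pseudocount of 1 FPKM it was called, with a change of 2.23 (adjusted p = 0.0208, limma), and over its alternatives the adjusted p ran from 0.0208 to 0.373. Variant 4 had a log2 change of 1.03 (standard error 0.27, adjusted p = 0.154, limma) and variant 1 of -0.52 (standard error 0.41, adjusted p = 0.600, limma), which turned to 0.02 without 5-AZA replicate 101. The difference between the variants' changes was not tested. The predicted records XM_017321456.1, XM_011241252.1, XM_017321455.1 and XM_006505738.3 had means from 0.134 to 0.583 FPKM and adjusted p-values from 0.521 to 0.896 (limma). The remaining 4, XM_006505743.3, NM_001308352.1, XM_006505737.3 and XM_006505739.2, had means from 0.0172 to 0.0942 FPKM and were below the limit for testing. Reads of exons shared between variants were divided by the quantification, so single transcripts are less certain than the sum.

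**Figure D2:**
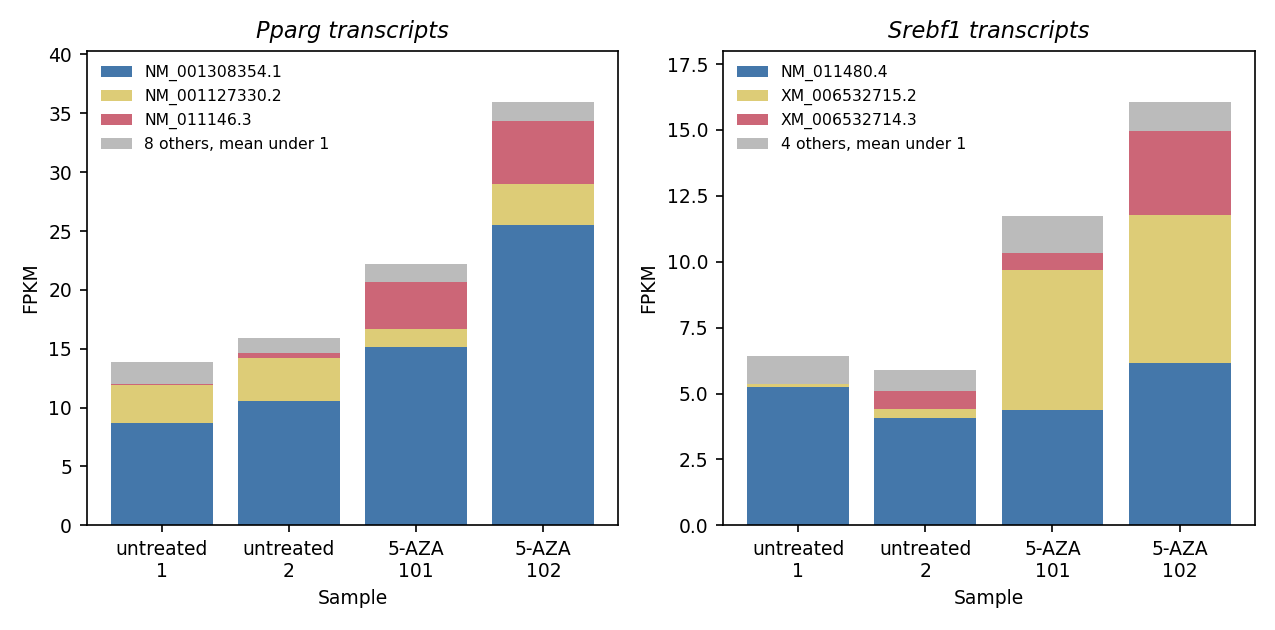
FPKM of the transcripts of Pparg (left) and Srebf1 (right) in each sample, stacked to the sum of the gene, with transcripts of a mean under 1 FPKM combined in grey. NM_011146.3 of Pparg and XM_006532715.2 of Srebf1 are thin in the untreated samples and reach 3.95 and 5.29 FPKM or more in the 5-AZA samples.

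Cebpa, the partner that sustains Pparg in the mature fat cell, was at 2.49 and 2.64 FPKM in the untreated and at 13.5 and 19.3 FPKM in the 5-AZA replicates. The untreated samples were nearly equal, and both 5-AZA samples were several times higher. Cebpa rose by 2.61 on the log2 scale (standard error 0.19, 95% interval 2.17 to 3.04, adjusted p = 2.02e-05, limma), and 5.29% of the genes tested had a larger log2 change. It was called under all 12 alternatives, with changes from 2.27 to 2.86 and adjusted p-values from 2.12e-10 to 0.0304. In FPKM it moved from 7th to 4th among the 9 genes, although its 5-AZA values span those of Cebpd and overlap those of Srebf1. By transcript, NM_001287514.1, NM_001287515.1, NM_001287521.1 and NM_001287523.1, which carried the same values, were called higher, with a log2 change of 2.48 (adjusted p = 0.0388, limma). NM_007678.3 had a change of 2.23 and was not called (adjusted p = 0.0678, limma).

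Klf15, a Krüppel-like factor of late adipogenesis that also acts in muscle, was almost absent from untreated cells. It was at 0.0732 and 0.0118 FPKM in the untreated and at 1.27 and 1.35 FPKM in the 5-AZA replicates. The untreated samples lay below the pseudocount, and the 5-AZA samples were alike. Klf15 rose by 3.34 on the log2 scale (standard error 0.35, 95% interval 2.54 to 4.14, adjusted p = 1.78e-04, limma), a size that depends on the pseudocount, with 1.15 at 1 FPKM and 4.95 at 0.01 FPKM. Without 5-AZA replicate 101 or 102 the adjusted p was 0.0652 or 0.0674 with changes of 3.38 and 3.30, and over the 10 alternatives that tested Klf15 it ran from 2.85e-07 to 0.0674. Nearly all of Klf15 after 5-AZA was in the predicted transcript XM_006506471.3, which made up 95.4% and 94.9% of its FPKM and was called by itself (log2 change 3.64, adjusted p = 0.0463, limma). The curated record NM_023184.3 stayed under 0.06 FPKM in every sample.

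The promoter windows of Cebpa, at chr7:35119043-35119342, and Klf15, at chr6:90462326-90462625, both on the forward strand of GRCm38.p6, are shown as those of the members with the largest changes. CG is again in capitals, and these windows were likewise not matched to transcript records.
Cebpa start 1: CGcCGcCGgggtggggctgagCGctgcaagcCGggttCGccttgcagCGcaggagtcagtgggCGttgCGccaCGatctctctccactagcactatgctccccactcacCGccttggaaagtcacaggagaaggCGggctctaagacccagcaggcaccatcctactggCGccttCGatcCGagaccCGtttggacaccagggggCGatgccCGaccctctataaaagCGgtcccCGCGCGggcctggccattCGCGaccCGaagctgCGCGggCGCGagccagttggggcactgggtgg
Klf15 start 1: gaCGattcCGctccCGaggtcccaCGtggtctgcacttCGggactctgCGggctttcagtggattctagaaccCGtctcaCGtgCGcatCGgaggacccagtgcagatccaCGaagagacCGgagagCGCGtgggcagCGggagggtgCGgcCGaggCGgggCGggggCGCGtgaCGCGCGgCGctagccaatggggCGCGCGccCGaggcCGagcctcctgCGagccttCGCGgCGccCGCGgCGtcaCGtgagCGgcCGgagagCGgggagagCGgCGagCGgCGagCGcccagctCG
Cebpa held 29 CG and Klf15 47, more than in 87.1% and 98.6% of all windows. Klf15 also had 3 matches to CACGTG, an E-box present in 7.15% of windows. In all, 7 of the 9 genes had an entry, with 13 windows, and the CG count ran from 2 in the downstream Pparg window to 50 in that of Cebpb. Zfp423 was the only other member with TTGCNNAA, at 2 places in its upstream window. The EBF motif CCCNNGGG was in 1 window each of Cebpb, Srebf1 and Zfp423 and in 13.7% of all windows. A repeat of AGGTCA spaced by any single base, as bound by PPAR with RXR, and TCACNCCAC, a sterol regulatory element, were in none of the 13 windows and in 0.0396% and 1.24% of all.

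Srebf1, which turns on fatty acid synthesis, was at 6.41 and 5.88 FPKM in the untreated and at 11.7 and 16.1 FPKM in the 5-AZA replicates. Both 5-AZA samples lay clear of the untreated samples, with replicate 102 the higher. Srebf1 rose by 1.15 on the log2 scale (standard error 0.17, 95% interval 0.76 to 1.54, adjusted p = 0.00129, limma). This call was lost without 5-AZA replicate 102 (change 0.92, adjusted p = 0.0745) and without the limit on low values (adjusted p = 0.0715), and over all alternatives the adjusted p ran from 8.29e-05 to 0.888.

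The higher Srebf1 level lay in predicted transcripts. NM_011480.4, transcript variant 1, was at 5.27 and 4.08 FPKM in the untreated and at 4.39 and 6.15 FPKM in the 5-AZA replicates, which overlap. XM_006532715.2 was at 0.106 and 0.324 FPKM in the untreated and at 5.29 and 5.63 FPKM in the 5-AZA replicates, and it rose by 4.23 on the log2 scale (standard error 0.49, adjusted p = 0.0176, limma). XM_006532714.3 was uneven, with 3.82e-04 and 0.699 FPKM in the untreated and 0.635 and 3.19 FPKM in the 5-AZA replicates. XM_006532715.2 took 1.65% and 5.51% of Srebf1 FPKM in the untreated and 45.1% and 35.0% in the 5-AZA replicates. The other curated record, NM_001313979.1, was lower, with 1.02 and 0.605 FPKM in the untreated and 0.598 and 0.295 FPKM in the 5-AZA replicates. It had a log2 change of -0.76 (adjusted p = 0.602, limma). Summed over the curated records alone, the log2 change of Srebf1 was 0.06 (adjusted p = 0.888, limma), so the call of Srebf1 depends on including the predicted transcripts. The cause was not tested. Over all members, 41 of 52 transcripts were tested and 6 were called higher, against 2.10% of all transcripts tested. The 4 of Cebpa share the same values and so are a single result, and Klf15 and Srebf1 have 1 each.

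**Figure D3:**
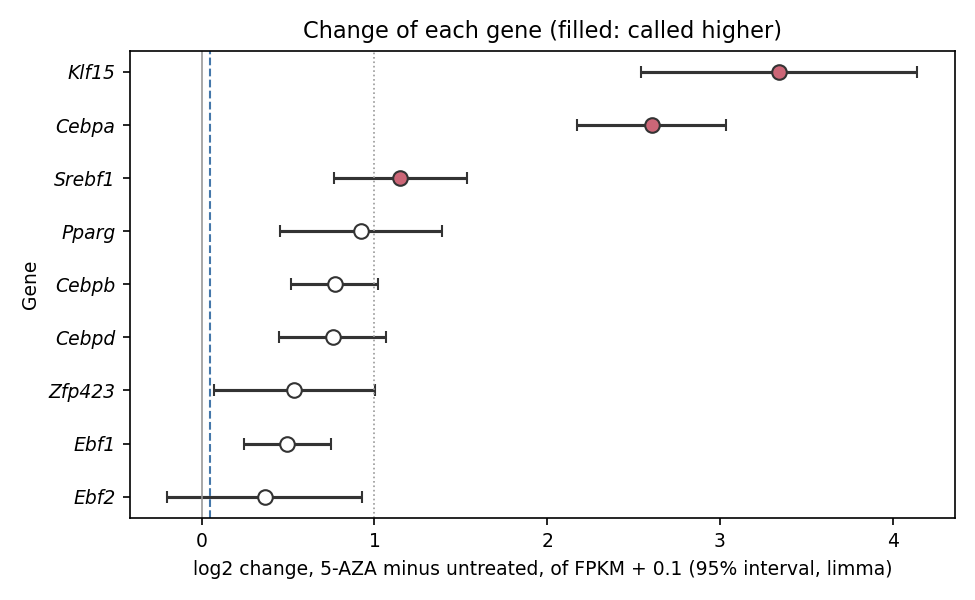
Log2 change of each gene from untreated to 5-AZA on the log2(FPKM + 0.1) scale with its 95% interval from limma (2 samples per group); filled points were called higher, the dotted line marks 2-fold and the dashed line the median of all genes tested, 0.05. Klf15, Cebpa and Srebf1 lie beyond 2-fold, and only the interval of Ebf2 includes 0.

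Centring on each sample's median moved the median log2 change of all genes from 0.05 to -0.06, and quantile normalization to -0.12. Under both, the same count of 3 members was called. The split of all calls depended more on the scaling, with 1724 genes higher and 174 lower in the values as deposited and 1041 and 886 after quantile normalization. Without 5-AZA replicate 101 or 102, 2 or 1 members and 925 or 733 genes in all were called higher.

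The counts of the 8 lists below stand against 13.1% called higher and 1.32% called lower among all genes tested. A gene near 0 in the untreated samples reaches the limit of 0.1 FPKM only through its 5-AZA values. In the lists as among all genes, a call of such a gene as higher follows partly from that limit. By adjusted p-value alone, 2449 of the 13199 genes were higher and 783 lower. Of 15 receptor partners and coregulators, 13 were tested and 0 were called by limma, with 1 higher and 0 lower at an adjusted p-value below 0.05 alone and a median log2 change of 0.12. Ncor1, a corepressor and the most abundant of them, was at 24.1 and 22.5 FPKM in the untreated and at 21.1 and 18.9 FPKM in the 5-AZA replicates (log2 change -0.22, adjusted p = 0.207, limma). Of 9 family relatives, 6 were tested, with a median of -0.11. At an adjusted p-value below 0.05 alone, 1 was higher and 2 were lower. The lower ones were Ebf3 (log2 change -0.80, adjusted p = 0.00855, limma) and Srebf2 (-0.62, adjusted p = 0.00700, limma), and neither was called. Nr1h3, the liver X receptor alpha gene, was the one called higher, from 0.0408 and 0.196 FPKM in the untreated to 1.48 and 1.99 FPKM in the 5-AZA replicates (log2 change 3.15, adjusted p = 5.62e-04, limma). Without 5-AZA replicate 101 or 102, without the limit on low values or with a mean of at least 1 FPKM, 0 relatives were called. Cebpg, the most abundant relative, was at 23.6 and 20.4 FPKM in the untreated and at 18.6 and 19.4 FPKM in the 5-AZA replicates (adjusted p = 0.243, limma). Of 5 genes of SREBP processing, all tested, 0 were called and 1 was higher by adjusted p-value alone. Insig1, which holds SREBP in the endoplasmic reticulum, was at 58.5 and 69.3 FPKM in the untreated and at 58.7 and 73.2 FPKM in the 5-AZA replicates (adjusted p = 0.868, limma).

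The regulators upstream of the cascade are set against the same counts of all genes for each criterion. Of 12 activators, all tested, 1 was called higher, Zfp467, at 0.0542 and 0.0494 FPKM in the untreated and 0.515 and 0.362 FPKM in the 5-AZA replicates (named after its values were seen). With a pseudocount of 1 FPKM, after quantile normalization or with a mean of at least 1 FPKM, 0 activators were called. By adjusted p-value alone 2 were higher and 0 lower, and the median log2 change was 0.11. Klf6, the most abundant, was at 43.6 and 43.3 FPKM in the untreated and at 40.2 and 38.2 FPKM in the 5-AZA replicates (adjusted p = 0.314, limma). Of 18 repressors, 17 were tested and 1 was called higher, with a median of 0.29, while 3 were higher and 3 lower by adjusted p-value alone. The called gene was Hes1, a Notch target, at 3.31 and 1.62 FPKM in the untreated and 7.45 and 8.22 FPKM in the 5-AZA replicates (log2 change 1.71, adjusted p = 0.00281, limma). Without 5-AZA replicate 101 or 102, or without the limit on low values, 0 repressors were called. Ddit3 dimerizes with C/EBP factors and blocks their binding. It was at 25.9 and 27.7 FPKM in the untreated and at 37.2 and 47.8 FPKM in the 5-AZA replicates. Its log2 change was 0.65 (adjusted p = 0.00731, limma), under the 2-fold limit. Bhlhe40 was the remaining higher one (0.43, adjusted p = 0.0330, limma). The 3 lower repressors were Tcf7l2 (-0.81, adjusted p = 0.00363, limma), Nr2f2 (-0.76, adjusted p = 0.0135, limma) and Zfp521 (-0.53, adjusted p = 0.0358, limma).

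Of 19 adipocyte targets of Pparg and Cebpa, 18 were tested and all 18 were called higher, against 13.1% of all genes tested. Their median log2 change was 4.82. The changes ran from 1.06 in Dgat2 to 7.12 in Cidec and so overlapped those of Srebf1, Cebpa and Klf15, and the difference between the targets and the factors was not tested. Fabp4, the fatty acid binding protein of fat cells, was at 22.9 and 9.66 FPKM in the untreated and at 887 and 1196 FPKM in the 5-AZA replicates (log2 change 6.10, adjusted p = 4.81e-06, limma). Cidec, a lipid droplet protein, was at 0.0881 and 0.0168 FPKM in the untreated and at 15.6 and 26.9 FPKM in the 5-AZA replicates (log2 change 7.12, adjusted p = 2.02e-06, limma). Plin1, Retn and Cfd had changes of 6.79, 6.83 and 6.60. In this list, Cidec, Cd36, Aqp7, Slc2a4 and Pck1 were below 0.1 FPKM in both untreated samples and were tested only through their 5-AZA values. Lep, which encodes leptin, was below the limit for testing, with 0.0274 FPKM in 5-AZA replicate 102 and 0 in the other samples. Without 5-AZA replicate 101 or 102, 11 or 9 of these targets were called.

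Of 11 SREBP1 targets, all tested, 4 were called higher and none lower, and by adjusted p-value alone 6 were higher and 2 lower, against the 2449 and 783 of 13199 genes given above. Their median log2 change was 0.45, and with single samples left out 2 to 4 were called, with the fewest without 5-AZA replicate 102. Thrsp, a regulator of lipogenesis, was at 0.0787 and 0.0239 FPKM in the untreated and at 11.5 and 14.4 FPKM in the 5-AZA replicates, and Scd1, a stearoyl-CoA desaturase, at 45.9 and 35.4 FPKM against 224 and 284 FPKM. Me1 had a change of 1.07 (adjusted p = 3.68e-04, limma), and Pnpla3 was the other gene called. Scd2, the most abundant of the list by the mean over the 4 samples though below Scd1 in both 5-AZA samples, went the other way, with 267 and 270 FPKM in the untreated and 173 and 198 FPKM in the 5-AZA replicates (log2 change -0.54, adjusted p = 0.00562, limma), and was not called. Of 6 brown fat genes, 4 were tested and called higher, with 3 or 4 called when single samples were left out and 2 with a mean of at least 1 FPKM. Cox7a1, a subunit of cytochrome c oxidase that is also abundant in muscle, was listed at 0 in both untreated samples and at 24.6 and 27.5 FPKM in the 5-AZA replicates. Dio2 reached 2.47 and 2.17 FPKM and Cidea 1.73 and 1.75 FPKM, and Cpt1b was the other gene called, with a log2 change of 1.38. Ucp1, the defining gene of brown fat, was at 0.0230 FPKM in 5-AZA replicate 102 and at 0 elsewhere. Elovl3 was at 0 in the untreated and at 0.136 and 0.0655 FPKM in the 5-AZA replicates, and neither it nor Ucp1 was tested. Cox7a1, Dio2 and Cidea were below 0.1 FPKM in both untreated samples, so the count of 4 follows partly from the limit for testing. Over the 8 lists, 29 of 86 genes tested were called higher and none lower, and by adjusted p-value alone 36 were higher and 7 lower, against 2449 and 783 of 13199 genes. The median was 0.34, and without 5-AZA replicate 101 or 102 there were 19 or 16.

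**Figure D4:**
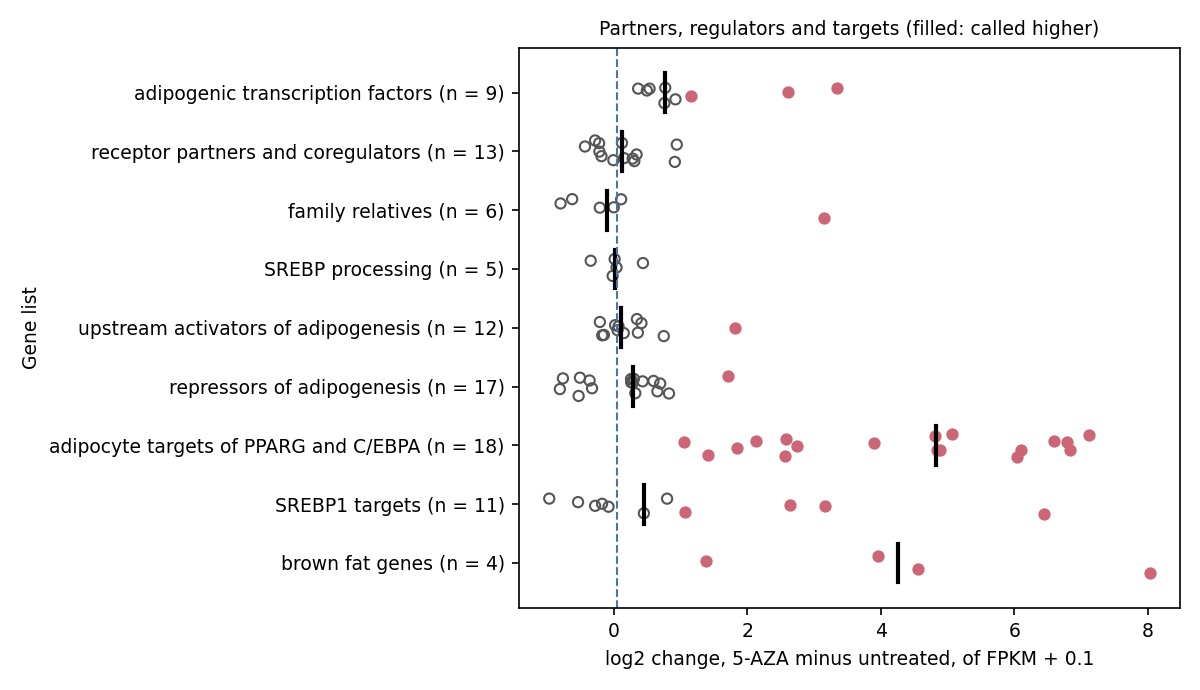
Log2 change from untreated to 5-AZA of each tested gene by list, on the log2(FPKM + 0.1) scale; filled points were called higher, black bars are the medians of the lists and the dashed line is the median of all genes tested, 0.05. The adipocyte targets have a median of 4.82 and the factors of 0.77, and the points of these lists overlap.

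Markers of several cell types moved along with the factors. The counts called in the marker lists stand against 13.1% higher and 1.32% lower among all genes tested. All 5 adipocyte markers, which are also among the 18 adipocyte targets above and so are no second result, were called higher, and their FPKM summed to 31.5 and 14.2 in the untreated and 1072 and 1468 in the 5-AZA replicates, with Fabp4 the most abundant. All 7 skeletal muscle markers were called higher too, and their sum was 1.10 and 0.850 in the untreated and 703 and 1086 in the 5-AZA replicates. Mylpf, a fast myosin light chain, led them with 0.392 and 0.376 FPKM in the untreated and 353 and 517 FPKM in the 5-AZA replicates. No adipocyte or muscle marker was at 0 in all samples. Of 7 mesenchymal markers, which fit the labelled cell type and were all present in untreated cells, 1 was called higher, Thy1, and 0 lower, and the sum was 3237 and 3296 FPKM in the untreated and 2081 and 2329 FPKM in the 5-AZA replicates. Vim, the most abundant of these, was at 2268 and 2406 FPKM in the untreated and at 1178 and 1380 FPKM in the 5-AZA replicates. Col1a2, with a log2 change of -0.37 (adjusted p = 0.0381, limma), and Col1a1, with -0.52 (adjusted p = 0.0402, limma), went the same way as Vim without being called. The remaining 3 went the opposite way and were not called, with log2 changes of 0.73 for Ly6a (adjusted p = 9.12e-04, limma), 0.74 for Pdgfra (adjusted p = 0.00112, limma) and 0.30 for Pdgfrb (adjusted p = 0.0653, limma).

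Most abundant here means the highest mean over the 4 samples, and in the untreated means Lyz2, Pecam1 and Cdh1 lay above Cd68, Cdh5 and Krt8. Of the 5 macrophage markers 2 were tested and 1 was called higher, Cd68, which was also the most abundant. Lyz2, the other marker tested, did not rise, with 0.957 and 1.70 FPKM in the untreated and 0.800 and 1.45 FPKM in the 5-AZA replicates. Its log2 change was -0.22 (adjusted p = 0.707, limma). The list summed to 2.13, 3.20, 3.20 and 5.19 FPKM in untreated replicates 1 and 2 and 5-AZA replicates 101 and 102. Adgre1, the defining macrophage marker, was at 0 in all samples. The 4 endothelial markers summed to 0.0807, 0.0295, 0.653 and 0.405 FPKM in the same order, with Kdr and Tie1 at 0 throughout, 2 genes tested, 1 of them called higher and Cdh5 the most abundant. The 4 epithelial markers summed to 0.941, 0.877, 19.9 and 25.1 FPKM, with 3 called higher, none at 0 in all samples and Krt8 the most abundant at 0.395 and 0.379 FPKM in the untreated and 15.3 and 19.4 FPKM in the 5-AZA replicates. Cdh1, the epithelial cadherin, went the other way, with 0.4995 and 0.497 FPKM in the untreated and 0.157 and 0.367 FPKM in the 5-AZA replicates (log2 change -0.79, adjusted p = 0.174, limma). The part of the muscle and other cell types in the levels of the 9 factors, the adipocyte targets and the other lists was not tested.

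**Figure D5:**
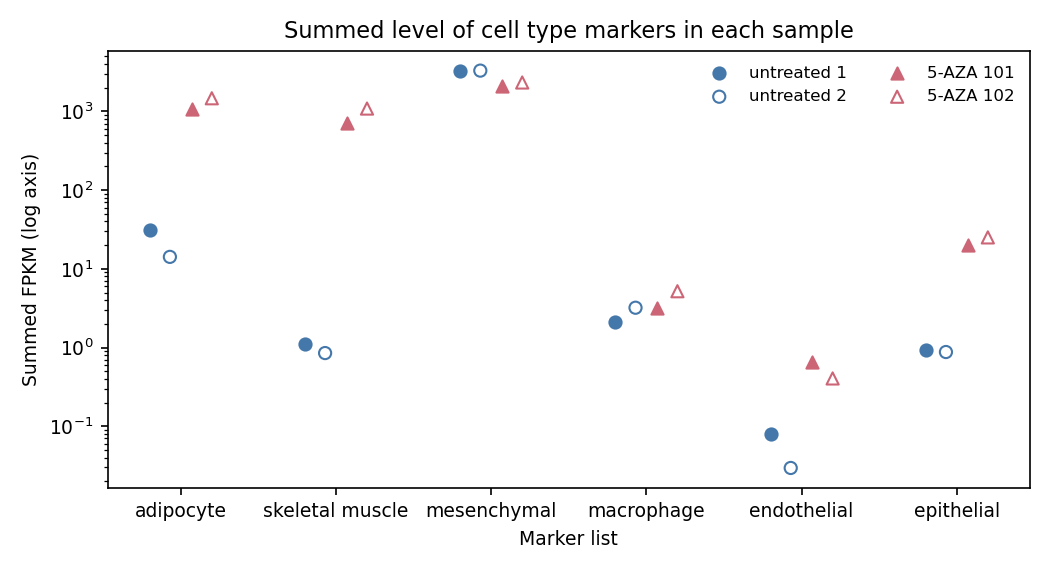
Summed FPKM of each marker list (log axis) in untreated replicates 1 and 2 (circles) and 5-AZA replicates 101 and 102 (triangles), with 1 point per sample. Adipocyte and skeletal muscle sums are both far higher in the 5-AZA samples, reaching 1468 and 1086 FPKM in replicate 102.

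The genes whose pattern over the 4 samples was most like that of Pparg were found among 10799 others with a mean of at least 1 FPKM, by the Euclidean distance of log2(FPKM + 0.1) centred on the gene's mean. They were Wnk4, Pcgf5, Gadd45g, Psmb10 and Mttp, at distances from 0.141 to 0.160. Like Pparg, each had its highest value in 5-AZA replicate 102, but 74.6% of all genes tested and 7 of the 9 members were higher in replicate 102 than in 101. None of the 5 was called, with log2 changes from 0.80 to 0.86. Gadd45g, for instance, was at 5.13 and 5.61 FPKM in the untreated and at 8.19 and 11.8 FPKM in the 5-AZA replicates. The genes most like Cebpa were Lipe, Hephl1, Acsl1, Wnt5b and Gm5662, at distances from 0.0745 to 0.147, and all 5 were called higher. Lipe, the hormone-sensitive lipase, was at 1.91 FPKM in both untreated samples and at 9.75 and 14.4 FPKM in the 5-AZA replicates. Lipe and Acsl1 were also on the list of adipocyte targets. Genes chosen this way have changes near that of Pparg or Cebpa, so their calls follow largely from the choice. With 4 samples, closeness of this kind is a description only.

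Few noncoding RNAs were tied to the factors by name. Of 131850 lncRNAs, 3 had a transcript of a member as nearest reference. TCONS_00002662 and TCONS_00002673, both classed as intronic to Ebf1, were at 6.77, 7.07, 7.63 and 6.18 FPKM and at 3.59, 3.15, 3.61 and 2.82 FPKM in untreated replicates 1 and 2 and 5-AZA replicates 101 and 102, and their groups overlapped. TCONS_00016689, a sense-overlapping RNA of 559 bases next to Pparg, was at 1.58 and 1.51 FPKM in the untreated replicates. It was at 1.42 and 0.757 FPKM in the 5-AZA replicates, which lay below without overlap. The same held for 3359 of the 13199 mRNA genes tested, and the share among lncRNAs is not given here.

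Of 4295 circRNAs, in the RPM unit as deposited, 4 had a member as host. The smallest RPM above 0 in a sample was between 0.0213 and 0.0215, so values near it rest on very few reads. circRNA_0575 of Ebf1 was at 0.0323 and 0 RPM in the untreated and at 0.0215 and 0.128 RPM in the 5-AZA replicates. The other 3, circRNA_0576 of Ebf1, circRNA_1323 of Ebf2 and circRNA_3869 of Zfp423, were each above 0 in 1 sample, at 0.0215 RPM in untreated replicate 1, 0.0319 RPM in 5-AZA replicate 102 and 0.0538 RPM in untreated replicate 1. These noncoding RNAs were not tested.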

How the data were processed

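The 2 untreated and 2 5-AZA samples were fitted together, apart from alternatives that left out 1 sample. The authors deposited FPKM values for mRNAs and lncRNAs and RPM values for circRNAs. The submitters' processing notes name Trimmomatic, HISAT2, Bowtie2 2.2.9 and eXpress 1.5.1 and the build mm9, and for differential expression the authors used DESeq. No coordinate of the deposited files is printed, and promoters come from RefSeq tables of GRCm38.p6.

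Transcripts were summed per gene. In R 4.3.3, limma 3.58.1 (lmFit, eBayes with trend) was fitted to log2(FPKM + 0.1) of all genes with a mean of at least 0.1 FPKM, and separately of all such mRNA transcripts, with Benjamini-Hochberg adjustment over every feature tested. A feature was called at an adjusted p-value below 0.05 and a change over 2-fold. The R package data.table (version 1.17.8) read the files, and Python 3.11.15 with pandas 2.3.3 and matplotlib 3.10.9 made the promoter tables and figures. lncRNA and circRNA values are given as deposited. The fits were tested on simulated data, and as no outcome is given here, no result rests on that step.

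Named are the 9 genes, every Pparg transcript and, except for Cebpb and Cebpd, other members' transcripts with a mean of at least 1 FPKM. From each list, up to 4 called genes are named. They have the largest change among those with a mean of 1 FPKM or more in the higher group. The most abundant gene of each list is named as well. Further named are the 5 genes most like Pparg and Cebpa, RNAs tied to a member, and markers. Other names (Zfp467, Pnpla3, Lep, Ucp1, Elovl3, Thy1, Dgat2, Cpt1b, Cd36, Aqp7, Slc2a4, Pck1, Ebf3, Srebf2, Bhlhe40, Tcf7l2, Nr2f2, Zfp521, NM_001310520.1, NM_001313979.1 and the Klf15 transcripts) were added after their values were seen. The members and lists were chosen with earlier results of these data known. The alternatives were other pseudocounts, limits on low values, scalings, eBayes without trend, curated transcripts alone and fits that left out 1 sample at a time.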

Additional observations from a re-analysis of the deposited data

How the results depend on the processing

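The number of samples limits every result, and with a sample left out its group's remaining sample is assumed to vary like the other group. Changes are on the log2 scale, and calls are those of limma. The cause of each shift below was not tested unless the alternative itself removes genes, samples or transcripts. Over curated transcripts alone, with 8 members tested, Cebpa was the only member called higher. 0 members were called lower under any of the other 11 alternatives, to which the next count refers. The count of members called higher was 2 to 4 except for 1 without 5-AZA replicate 102, so leaving out single samples gave 1 to 4.

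Over all genes, 875 were called higher and 86 lower with a pseudocount of 1 FPKM, 845 higher with a mean of at least 1 FPKM, 83 lower without a limit on low values, and 1041 and 886 after quantile normalization. Leaving out single samples gave 733 to 1617 higher and 52 to 184 lower, 16 to 28 calls over the 8 lists and 9 to 18 adipocyte targets.

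Srebf1 was not called without the limit on low values, where its change stayed at 1.15, or over curated transcripts alone, where the change was near 0 (0.063). Ebf2 turned to -0.36 after quantile normalization. Variant 2 of Pparg (NM_011146.3) was called with a pseudocount of 1 FPKM (2.23). With single samples left out, changes ran from 0.57 to 1.27 for Pparg, 3.03 to 3.66 for Klf15 and 0.92 to 1.37 for Srebf1. Those of Zfp423 ran from 0.33 to 0.75 and those of Ebf2 from 0.22 to 0.51. Among Pparg transcripts they ran from 0.65 to 1.40 for NM_001308354.1 and 3.21 to 5.35 for NM_011146.3. The ranges were -1.06 to 0.017 for NM_001127330.2 and -0.48 to 0.046 for XM_017321456.1. Klf15 has no value with a mean of at least 1 FPKM or over curated transcripts, where it is not tested. No paired analysis was possible because the groups share no replicate number.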
